A study of Arabidopsis thaliana with 16 samples.

Results

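Dry mature seeds of the dog1-4 mutant were compared with those of Col-0, the wild-type accession of Arabidopsis thaliana, by 3′RNA-Seq, a method in which only the last stretch of a polyadenylated transcript is read and counted. The comparison used every library that carried either genotype in its label, 4 of dog1-4 and 4 of Col-0, which are 8 of the 16 libraries of the series. The other 8 libraries came from brm-3dog1-4 and brm-3 seeds. The brm-3 mutation is an insertion allele whose BRM protein lacks the bromodomain, and not a knockout. These libraries enter the joint fit of all 16, and so the filter, the scaling and the estimate of spread behind every test. Their own levels are used only where loss of DOG1 is set against the same loss in a brm-3 background. The mutant seeds carried the dog1-4 allele alone, in 1 line from a stock centre. Plants of both genotypes grew in soil in a long-day greenhouse, and harvested seeds were kept dry in paper at room temperature. Seed age is not given in the sources used here. For its seed assays the study defines a replicate as seeds mixed from several independent plants, without saying so for the RNA libraries. The libraries are described as biological replicates, and p-values of the fit measure the spread between libraries of the same genotype, estimated from all 16. Of 37336 gene identifiers in the files, 10251 had enough reads to be tested, and all of them enter the comparison.

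DOG1 (DELAY OF GERMINATION 1) is a seed protein of unknown biochemical activity that accumulates during seed maturation and holds back germination of the mature seed. It acts beside the hormone abscisic acid (ABA): DOG1 protein binds AHG1 and AHG3, clade A type 2C protein phosphatases (PP2Cs) that switch off ABA signalling. In that pathway ABA bound to PYR/PYL receptors blocks the PP2Cs, SnRK2 kinases are released, and bZIP factors such as ABI5 activate late maturation genes through a promoter motif, the ABA-responsive element (ABRE). Gibberellin (GA) acts in the other direction and promotes germination. A dry seed holds the transcripts stored at the end of maturation, so its transcript levels record what was made and kept before drying.

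DOG1 itself was first examined as a check of the labels. It stood at 3.72, 2.58, 2.44 and 5.34 CPM in the dog1-4 libraries, against 102, 101, 117 and 80.4 CPM in the Col-0 libraries, where CPM relates the reads of a gene to the total of its library after scaling the libraries to each other. These values came from 6, 2, 3 and 7 reads in dog1-4 and 203, 124, 146 and 125 reads in Col-0, so all 8 labels fitted the gene they name. The log2 fold change was −4.74 ± 0.24 (SE; adjusted p = 5.69e-24; here and below p-values come from the quasi-likelihood test of edgeR and are adjusted by Benjamini-Hochberg over all tested genes), and an exact two-sided permutation test gave p = 0.0286, the smallest that 4 against 4 libraries allow. Whether strand was used in counting is not given in the sources used here, so the few reads left in dog1-4 could not be divided between DOG1 and its antisense transcript.

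The libraries held 803578 to 1516604 reads in dog1-4 and 1467125 to 2273515 in Col-0, and 3 reads, taken here as the floor of detection, corresponded to 1.51 to 3.87 CPM; floors cover counting error only. The first principal component held 41.6% of the variance and separated the genotypes. Scaling by library total alone would have moved the median gene up by 0.22 (log2) in dog1-4, and all changes below are relative to trimmed mean scaling, which put it at −0.00. Dry embryo markers were abundant in all 8 libraries, and of 10 tested 3 were lower in dog1-4 and none higher. Of 8 seed coat markers BAN, TT12 and TT8 were at 0 throughout, while ARA12, the only one tested, was higher in dog1-4 (0.32, adjusted p = 0.0424) and the 8 summed to 161 ± 25.1 CPM in dog1-4 and 127 ± 3.75 CPM in Col-0. Of the endosperm markers, 5 of 8 (RGE1, ALE1, SUC5, FIS2 and FWA) were at 0 throughout, whereas EPR1 was abundant. Of the 2 tested, MFT (annotated as E12A11) was higher in dog1-4 without overlap (0.94, adjusted p = 1.62e-07), and EPR1 did not pass the test. The 4 pollen markers summed to 65.8 to 169 CPM in dog1-4, with replicate 3 the highest, and 28.1 to 81.7 CPM in Col-0; 1 of 3 tested, AGP11, was higher. The part of seed coat, endosperm and pollen transcripts in other results was not tested. In whole seeds, fewer cells of a type and less transcript per cell cannot be told apart.

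Loss of DOG1 changed 640 genes at an adjusted p under 0.05 and a log2 fold change beyond 1 in either direction, 6.24% of those tested. Of these 431 were increased (4.2%) and 209 decreased (2.04%). By median level the decreased genes were the more abundant in Col-0 but not in dog1-4. Their median was 10.1 CPM in dog1-4 and 30.1 CPM in Col-0, while the increased genes had a median of 12.9 CPM in dog1-4 and 4.64 CPM in Col-0. The summed CPM of the decreased genes came to 3.89% of the nominal CPM total in dog1-4 and 10.5% in Col-0. For the increased genes it came to 2.05% in dog1-4 and 0.767% in Col-0. These are scaled sums and not shares of all transcripts, since scaled CPM do not add up to the nominal total. Scaling factors were 0.924 to 1.09 in dog1-4 and 0.817 to 0.927 in Col-0, so the percentages of the genotypes do not have the same base. The median change was 1.42 on the log2 scale, with 108 genes above 2 and 43 below −2. In 61 increased genes all Col-0 libraries lay at or under 3 reads, and in 7 decreased genes the dog1-4 libraries did. The fitted fold changes of these genes depend on the few reads of that genotype, and where one is named its fold is given as a lower bound against the floor. Libraries of the genotypes did not overlap in 550 of the 640 genes (85.9%), against 19.8% of all tested genes (10.2% with all dog1-4 libraries above and 9.54% with all below). The 640 genes were picked by their change between these same libraries, which favours a gap, so these shares are not comparable. Without a limit on the fold change, 1009 genes (9.84%) were higher and 880 (8.58%) lower, and counts for gene groups below are on that basis. The count of changed genes depended on the fit: with these 8 libraries alone 286 genes were increased, and with all libraries thinned to equal depth 249 were increased and 136 decreased.

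**Figure D1:**
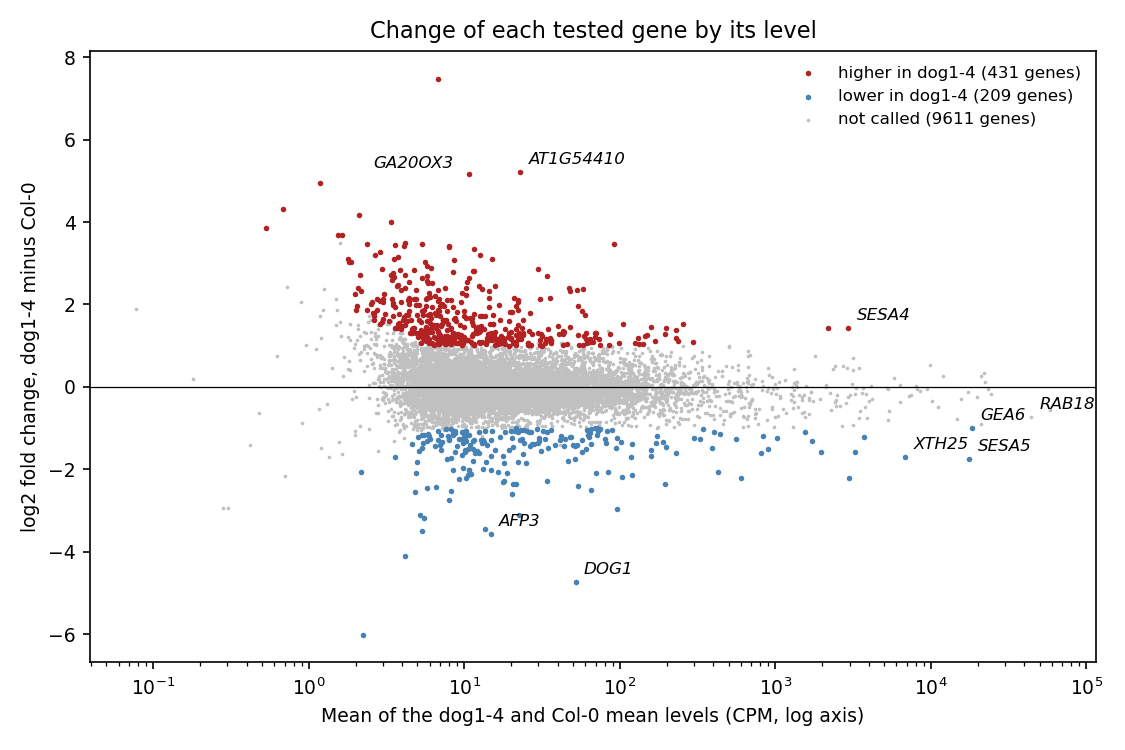
Log2 fold change (dog1-4 minus Col-0) against the mean level of each tested gene (CPM, log axis); red points are the 431 increased and blue points the 209 decreased genes, grey points the rest. Increased genes lie mostly at low levels, while decreased genes reach into the most abundant transcripts, such as SESA5 and GEA6.

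The AFP genes, which encode ABI5-binding proteins that restrain ABA responses, fell as a family. All 4 were lower in dog1-4, with a median log2 fold change of −2.42 against −0.00 for all tested genes. AFP3 was at 3.72, 2.58, 0.815 and 1.53 CPM in dog1-4, against 25.7, 21.2, 32.2 and 30.9 CPM in Col-0 (log2 fold change −3.58 ± 0.41). AFP1 was at 8.07, 3.87, 5.70 and 5.34 CPM in dog1-4, against 32.3, 26.9, 25.7 and 34.1 CPM in Col-0 (−2.30 ± 0.25, adjusted p = 5.17e-11). AFP2, the most abundant of them, had 24.8, 24.5, 29.3 and 37.4 CPM in dog1-4 and 63.1, 73.2, 65.1 and 71.4 CPM in Col-0 (−1.21). In all 3 the genotypes were apart, and so they were for TMAC2, the AFP4 gene, which averaged 1.17 ± 1.34 CPM in dog1-4 and 8.45 ± 1.49 CPM in Col-0 (SD, n = 4 each). TMAC2 in dog1-4 was at or near the floor.

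Most clade A PP2C genes were lower as well. Of 9 tested, 7 were lower and 1 higher (median −0.84), and their summed level was 527 ± 10.3 CPM in dog1-4 and 971 ± 37.8 CPM in Col-0. AHG1, the seed PP2C bound by DOG1 protein, was at 238, 278, 266 and 241 CPM in dog1-4, against 562, 511, 573 and 543 CPM in Col-0 (−1.1 ± 0.09, adjusted p = 1.06e-14). The other DOG1 partner, AHG3 (annotated as PP2CA), was at 63.9, 71.0, 67.6 and 79.4 CPM in dog1-4 and 127, 118, 131 and 127 CPM in Col-0 (−0.84). Both partners of DOG1 thus stood below the lowest Col-0 library in every dog1-4 library. ABI2 (−1.01), HAB1 (−1.23), HAB2 (−0.66), HAI2 (−0.57) and HAI1 (−2.20) were lower too. HAI3 was the gene that rose, with 36.0, 45.2, 35.8 and 38.9 CPM in dog1-4, against 18.2, 19.5, 12.9 and 12.2 CPM in Col-0 (1.28), and ABI1 did not pass the test (0.45 ± 0.24, adjusted p = 0.201).

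The receptor genes of the pathway were more often higher than lower. Of 9 tested receptor genes, 5 were higher and 1 lower, with a median of 0.73. PYR1 averaged 31.6 ± 4.6 CPM in dog1-4 and 19 ± 3.02 CPM in Col-0 (log2 fold change 0.73), and PYL13 15.4 ± 4.3 CPM in dog1-4 and 4.97 ± 1.31 CPM in Col-0 (1.68), both without overlap. With all libraries thinned to equal depth neither passed the test (adjusted p = 0.28 for PYR1 and 0.0565 for PYL13). PYL8 (annotated as RCAR3) was at least 2.34-fold higher, since Col-0 lay at or under the floor. PYL11 (1.1, adjusted p = 0.0335) and PYL12 (−0.64, adjusted p = 0.0171) are neighbouring genes of similar sequence, 3 and 4 gene models from DOG1, that went in different directions, with overlapping libraries, and how reads that fit both were counted is not given in the sources used here. PYL12 no longer passed the test without Col-0 replicate 1 (adjusted p = 0.0854) or without any one of dog1-4 replicates 1, 2 and 3 (0.0599, 0.0616 and 0.0544), nor at equal depth (0.255) or with DESeq2 (0.0912). Of the SnRK2 kinases, SNRK2.3 rose (0.61 ± 0.11), with 122 to 156 CPM in dog1-4 libraries and 81.0 to 102 CPM in Col-0 libraries.

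Among the transcription factors of ABA response and maturation, 3 of 10 tested were higher and 2 lower (median 0.13). ABI5, the bZIP factor that the AFP proteins bind, was at 340, 241, 261 and 337 CPM in dog1-4, against 560, 440, 493 and 534 CPM in Col-0 (−0.77 ± 0.10, adjusted p = 1.74e-08). ABF4, a related bZIP factor, was at 8.07, 6.45, 7.33 and 8.40 CPM in dog1-4 and 24.2, 16.3, 16.9 and 19.3 CPM in Col-0 (−1.34). Other bZIP factors of the same group went up: EEL averaged 98.9 ± 6.2 CPM in dog1-4 and 54.9 ± 11.2 CPM in Col-0 (0.82), and ABF2 11.4 ± 2.19 CPM in dog1-4 and 2.2 ± 0.723 CPM in Col-0 (2.36). ABI3, a master regulator of maturation, was slightly higher (0.37 ± 0.11, adjusted p = 0.011). For ABA synthesis and breakdown 1 of 6 tested genes passed the test, ABA1, the zeaxanthin epoxidase gene, with 117, 106, 110 and 127 CPM in dog1-4 against 249, 208, 219 and 246 CPM in Col-0 (adjusted p = 2.35e-11). CYP707A2, which encodes an ABA 8′-hydroxylase, averaged 29.7 ± 6.02 CPM in dog1-4 and 23.5 ± 2.71 CPM in Col-0 (0.32 ± 0.20, adjusted p = 0.277). NCED4, a carotenoid dioxygenase gene outside that list, was lower with overlapping libraries (−0.52), and missed the threshold at equal depth (adjusted p = 0.0536).

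The bases just upstream of the AFP and AHG1 genes are shown because members of both families fell together and ABRE-binding factors are the last step of the pathway they restrain. Each line gives 250 bases before the annotated gene start in the TAIR10.1 genome sequence and annotation of RefSeq, read 5′ to 3′ on the strand of the gene, with capitals for the ABRE core ACGTG or its reverse complement CACGT, overlapping matches included. GEA6, a decreased maturation gene, and GA20OX3, an increased gene, are added for comparison. The windows lie at chr3:11384146-11384395 (minus strand, AFP3), chr1:26038655-26038904 (plus, AFP1), chr1:4713183-4713432 (plus, AFP2), chr5:21026555-21026804 (plus, AHG1), chr2:16780369-16780618 (minus, GEA6) and chr5:2245340-2245589 (minus, GA20OX3), and none overlaps another gene model.
AFP3: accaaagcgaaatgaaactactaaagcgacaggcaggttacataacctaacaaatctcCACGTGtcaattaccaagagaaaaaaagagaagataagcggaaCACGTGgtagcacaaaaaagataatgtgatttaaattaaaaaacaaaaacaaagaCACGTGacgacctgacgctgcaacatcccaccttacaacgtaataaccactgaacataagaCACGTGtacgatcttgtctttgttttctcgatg
AFP1: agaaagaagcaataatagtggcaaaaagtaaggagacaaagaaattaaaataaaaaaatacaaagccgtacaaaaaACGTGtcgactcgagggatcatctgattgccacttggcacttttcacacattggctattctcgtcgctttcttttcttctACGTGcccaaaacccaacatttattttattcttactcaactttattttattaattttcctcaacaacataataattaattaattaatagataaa
AFP2: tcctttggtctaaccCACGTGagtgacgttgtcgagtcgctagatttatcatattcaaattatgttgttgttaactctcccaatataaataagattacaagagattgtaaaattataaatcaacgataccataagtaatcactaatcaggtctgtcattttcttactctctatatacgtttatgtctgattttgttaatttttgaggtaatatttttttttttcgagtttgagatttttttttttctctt
AHG1: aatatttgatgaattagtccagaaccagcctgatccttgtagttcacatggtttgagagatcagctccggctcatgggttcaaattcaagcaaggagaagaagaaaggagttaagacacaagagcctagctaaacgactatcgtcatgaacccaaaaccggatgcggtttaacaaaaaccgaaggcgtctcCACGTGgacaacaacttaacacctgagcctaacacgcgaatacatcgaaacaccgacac
GEA6: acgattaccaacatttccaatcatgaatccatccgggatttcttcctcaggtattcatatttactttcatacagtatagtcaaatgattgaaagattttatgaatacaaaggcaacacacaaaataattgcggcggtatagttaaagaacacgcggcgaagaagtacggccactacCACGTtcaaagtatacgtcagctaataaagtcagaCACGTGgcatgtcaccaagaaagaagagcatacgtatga
GA20OX3: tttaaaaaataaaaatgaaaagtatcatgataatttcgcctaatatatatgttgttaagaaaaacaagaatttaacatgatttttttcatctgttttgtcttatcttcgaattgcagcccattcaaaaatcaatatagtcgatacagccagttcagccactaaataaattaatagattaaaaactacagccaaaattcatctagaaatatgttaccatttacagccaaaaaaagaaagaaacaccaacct

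AFP3 holds 4 copies of the palindrome CACGTG, each counted on both strands, which makes 8 matches, GEA6 holds 3 matches, and AFP1, AFP2 and AHG1 hold 2 each. No match occurs in the window of GA20OX3, nor in those of TMAC2, ABI1, ABI2 and HAI1, of which TMAC2, ABI2 and HAI1 fell. HAI3, the clade A PP2C gene that rose, holds 2 matches. The motif was counted in the same window of every gene. It was present in 107 of 209 decreased genes (51.2%) and in 104 of the 415 increased genes with a window (25.1%), against 24.6% of 10181 tested genes and 22.9% of all 27443 protein-coding genes. At least 2 matches were found in 32.1% of decreased and 8.92% of increased genes, against 11.5% of tested genes. Since abundant genes carry the motif more often, the shares were also taken in 4 equal bins of expression level. Decreased genes held it in 31.8%, 46.0%, 65.1% and 58.3% from the lowest to the highest bin, increased genes in 19.1%, 25.5%, 27.1% and 48.9%, and all tested genes in 22.0%, 22.7%, 23.5% and 30.1%. These shares describe letters in a window and were not tested. GAANNTTC, a short form of the heat shock element, read on both strands, was found in 9.09% of decreased, 9.88% of increased and 9.0% of tested genes.

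**Figure D2:**
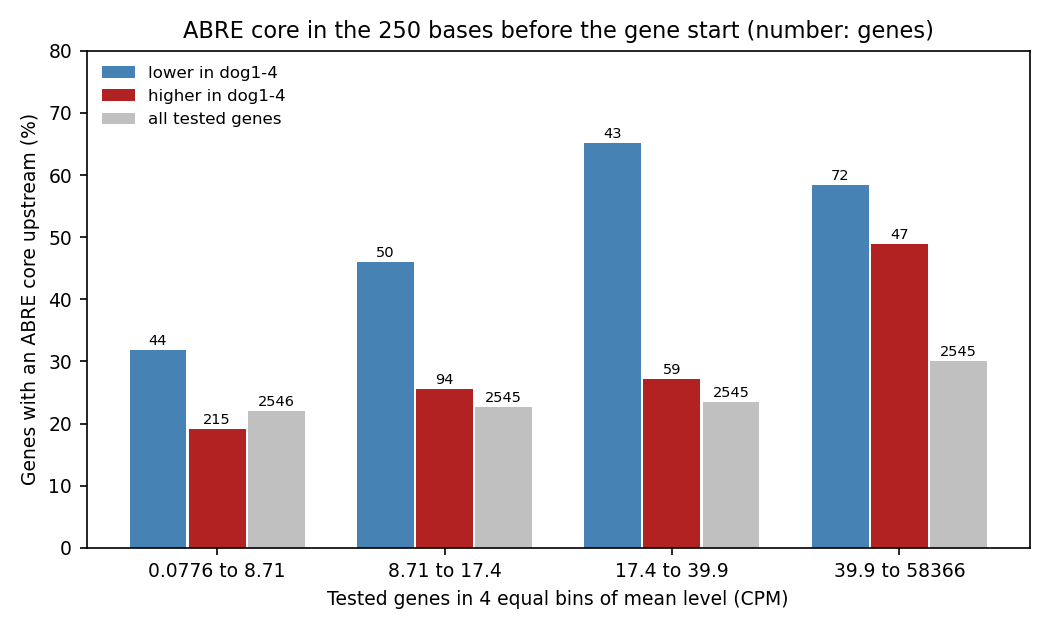
Percent of genes with ACGTG on either strand within 250 bases upstream, in 4 equal bins of mean level (CPM), for decreased, increased and all tested genes. The share of decreased genes is above that of all tested genes in each bin and reaches 65.1%, while that of increased genes is 48.9% in the highest bin, against 30.1% of all tested genes.

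On the GA side, a synthesis gene was higher and an inactivation gene lower, each with the other genotype at or near 0 reads. Of 7 tested genes of GA synthesis and inactivation, 4 were higher and 1 lower (median 0.53). GA20OX3, which encodes a GA 20-oxidase of the late synthesis steps, had 21.7, 29.7, 14.7 and 18.3 CPM in dog1-4, against 0.505, 0, 0 and 1.29 CPM in Col-0, at least 10.2-fold higher. GA2OX6, whose product inactivates GA, went the opposite way, with 0, 0, 1.63 and 0 CPM in dog1-4 against 10.1, 4.07, 8.04 and 9.64 CPM in Col-0, at least 3.04-fold lower. A synthesis gene that Col-0 seeds hardly contained was thus present in dog1-4 seeds, and an inactivation gene was near absent from them. A second inactivation gene, GA2OX2, was higher (1.33, adjusted p = 0.0235) with overlapping libraries, as was the synthesis gene KAO2 (0.58). Of 6 tested GA signalling genes 3 were higher and none lower (median 0.47). Among the DELLA genes, which encode the repressors that GA removes, GAI averaged 22.2 ± 2.91 CPM in dog1-4 and 11 ± 2.83 CPM in Col-0 (1.04), and RGL2 11.3 ± 5.55 CPM in dog1-4 and 4.15 ± 1.15 CPM in Col-0 (1.39), with overlap. At equal depth GAI and KAO2 missed the threshold (adjusted p = 0.355 and 0.0689). RGL3 did not pass the test (−0.33, adjusted p = 0.268). SLY1, the F-box gene for DELLA breakdown, was higher (0.78, adjusted p = 0.0346), but not without dog1-4 replicate 2 (0.60, adjusted p = 0.157), and it also missed the threshold without dog1-4 replicate 1 (0.0547), Col-0 replicate 1 (0.175) or Col-0 replicate 3 (0.0712), at equal depth (0.43) and with DESeq2 (0.124).

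Genes known for dormancy outside the ABA and GA pathways went up more often than down, with 5 higher and 2 lower of 12 tested. RDO5 (AT4G11040), a PP2C-like gene required for dormancy, was at 178, 218, 232 and 221 CPM in dog1-4, against 104, 85.4, 76.4 and 82.9 CPM in Col-0 (1.26 ± 0.12, adjusted p = 2.98e-13). MFT (annotated as E12A11), a germination regulator of the PEBP family, averaged 108 ± 26.5 CPM in dog1-4 and 56.7 ± 8.23 CPM in Col-0 (0.94). PIF1 (annotated as PIL5), a bHLH factor that represses germination in darkness, averaged 28.6 ± 2.66 CPM in dog1-4 and 11.4 ± 2.56 CPM in Col-0 (1.33). All 3 were without overlap, and all 3 genes act to hold germination back or have been tied to dormancy. SOM, a zinc finger gene that acts downstream of PIF1, was lower by a small margin, at 953 to 1023 CPM in dog1-4 and 1122 to 1238 CPM in Col-0 (−0.26, adjusted p = 0.0421). AT4G18690, a gene of the DOG1 family, had 14.3, 9.04, 4.07 and 10.7 CPM in dog1-4 and 3.03, 0.814, 1.61 and 2.57 CPM in Col-0 (2.16 ± 0.42). BRM, the chromatin remodeler gene that the series also examined, averaged 31.0 ± 8.33 CPM in dog1-4 and 28.0 ± 6.12 CPM in Col-0 (0.14 ± 0.20, adjusted p = 0.711).

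**Figure D3:**
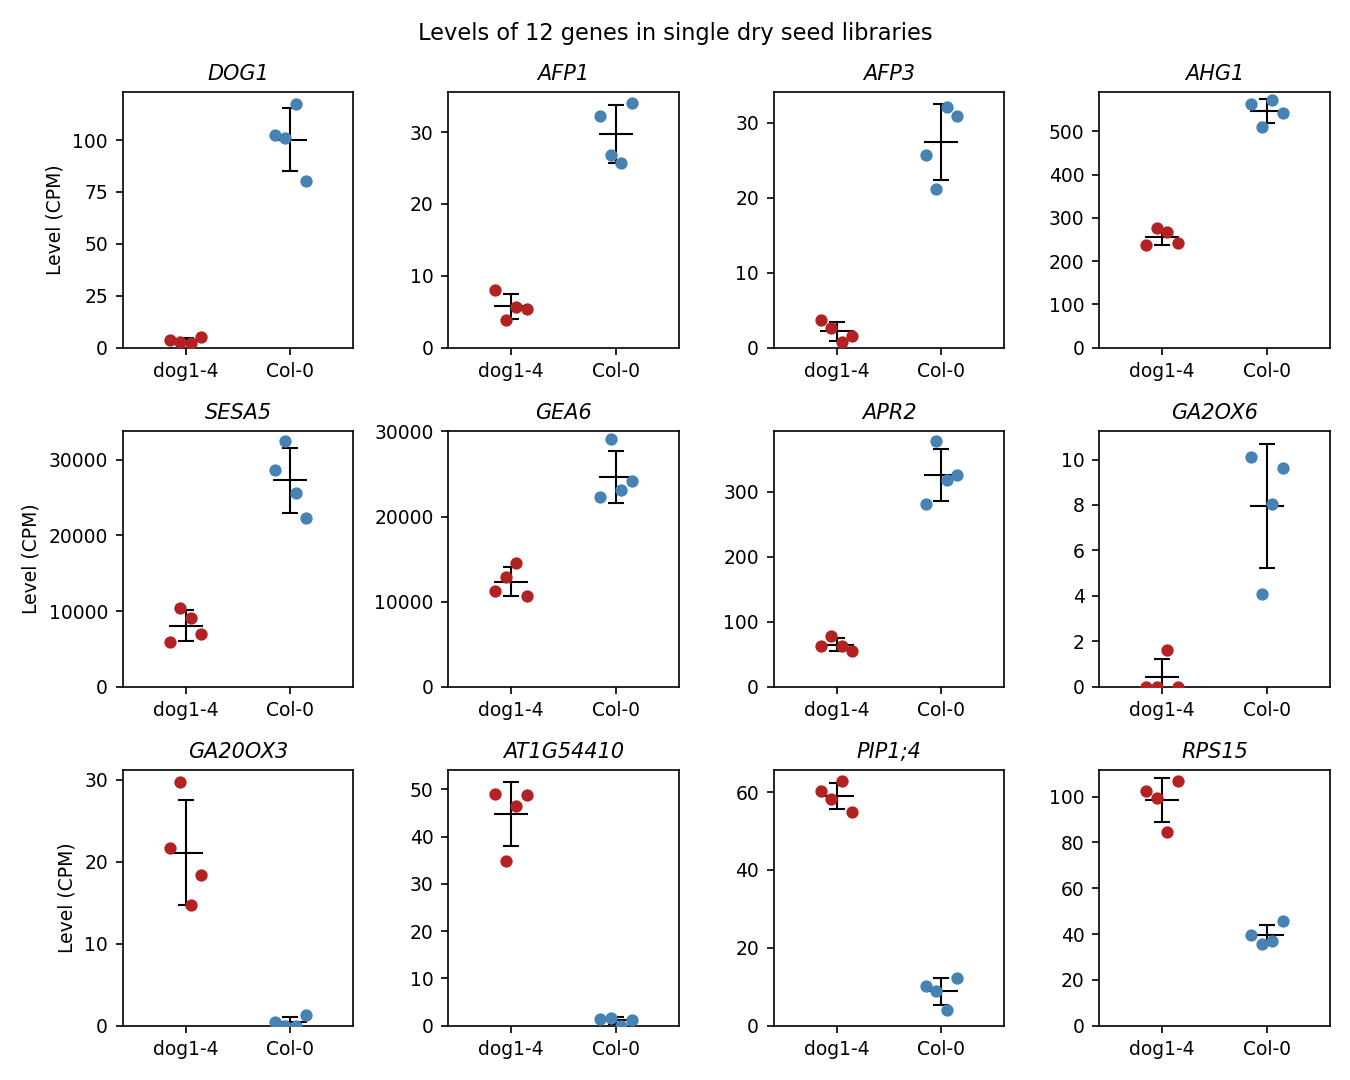
Level of 12 genes (CPM, linear axes from 0), with dog1-4 left of Col-0; every point is 1 library, and bars give the mean and 1 SD of 4 libraries. In none of the 12 do the genotypes overlap: the first 8, from DOG1 to GA2OX6, are lower in every dog1-4 library, and the last 4, from GA20OX3 to RPS15, are higher.

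Late embryogenesis abundant (LEA) proteins, hydrophilic proteins made as the embryo dries, included many decreased genes of high abundance. Of 34 tested LEA genes 14 were lower and 4 higher (median −0.23), and the summed level was 115593 to 158691 CPM in dog1-4 and 170053 to 214496 CPM in Col-0, without overlap. GEA6, the group 1 LEA gene also called EM6, was at 11241, 12890, 14479 and 10682 CPM in dog1-4, against 22252, 29129, 23075 and 24178 CPM in Col-0 (adjusted p = 3.39e-09). RAB18 (AT5G66400), an ABA-responsive dehydrin, was at 26434 to 42464 CPM in dog1-4 and 47061 to 67882 CPM in Col-0 (−0.74). M17 fell further, to 992, 1341, 1052 and 838 CPM in dog1-4, against 3620, 6216, 4614 and 5129 CPM in Col-0 (−2.22). LEA4-5 (−1.22), AT3G53040 (−1.59) and AT4G36600 (−1.57) were lower without overlap. Of the 4 LEA genes that rose, 3 were scarce in Col-0. AT1G54410, a dehydrin family gene, had 49.0, 34.9, 46.4 and 48.9 CPM in dog1-4 and 1.51, 1.63, 0 and 1.29 CPM in Col-0, at least 21.6-fold higher. ERD14, another dehydrin gene, had 16.1, 20.7, 26.9 and 21.4 CPM in dog1-4 and 3.53, 2.44, 0 and 1.29 CPM in Col-0 (3.35 ± 0.52), and AT2G44060 averaged 10.1 ± 2.99 CPM in dog1-4 and 3.32 ± 2.12 CPM in Col-0 (1.51). Upstream windows of 29 of the 34 LEA genes (85.3%) held ACGTG, including those of AT1G54410 and ERD14.

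Of 9 tested storage protein genes 2 were lower and 1 higher, with a median of −0.06. The 2S albumin genes split. SESA5 was at 5908, 10383, 9071 and 6966 CPM in dog1-4, against 28598, 32472, 25632 and 22328 CPM in Col-0 (−1.75 ± 0.14, adjusted p = 7.86e-15). SESA4 had 3349, 4017, 5240 and 4570 CPM in dog1-4 and 2534, 1133, 1806 and 889.9 CPM in Col-0 (1.43 ± 0.28), again without overlap but in the other direction. SESA4 lies in a tandem group of similar 2S genes, so the division of reads among them is uncertain. The major 12S cruciferin gene CRA1 averaged 22968 ± 4694 CPM in dog1-4 and 19113 ± 4353 CPM in Col-0 (0.27, adjusted p = 0.187), while of 12 tested oil body protein genes 3 were lower and none higher (median −0.01), among them the oleosin gene OLEO4 (−0.48) with overlapping libraries. XTH25, a cell wall xyloglucan enzyme gene as abundant in Col-0 as many storage transcripts, was at 2796, 2983, 4088 and 3001 CPM in dog1-4, against 10415, 10914, 11213 and 9348 CPM in Col-0 (−1.70 ± 0.13).

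Small heat shock protein genes formed another decreased group. Of 20 tested, 10 were lower and 1 higher (median −0.46), and their sum was 7614 ± 443 CPM in dog1-4 and 11937 ± 964 CPM in Col-0. HSP17.4, the most abundant member named here, was at 2431, 2558, 2719 and 2660 CPM in dog1-4, against 4172, 4531, 4236 and 4475 CPM in Col-0 (−0.75 ± 0.10). HSP17.6II had 4.35, 0, 1.63 and 1.53 CPM in dog1-4 and 14.6, 35.0, 15.3 and 36.6 CPM in Col-0 (−3.44 ± 0.45), and ATHSP22.0, an endoplasmic reticulum member, 3.72, 2.58, 5.70 and 6.11 CPM in dog1-4 against 32.3, 50.5, 19.3 and 60.4 CPM in Col-0 (−3.10 ± 0.54). HSP17.6II and ATHSP22.0, both scarce, fell more than HSP17.4, and their Col-0 libraries were widely spread. A relation of level to fall over the list was not tested. AT2G29500 (−2.06), AT1G52560 (−1.52) and the mitochondrial HSP23.6-MITO, which was outside the list (−2.39), were lower without overlap. Among 22 other chaperone genes 4 were lower and 1 higher. Hsp70b had 843, 904, 1089 and 1126 CPM in dog1-4 and 2361, 2733, 2381 and 2360.3 CPM in Col-0 (−1.31 ± 0.11), and HSP101, the chaperone that dissolves protein aggregates, averaged 323 ± 9.76 CPM in dog1-4 and 599 ± 55.9 CPM in Col-0 (−0.89). HSFA9, a seed heat shock factor that activates such genes, was at 237 to 267 CPM in dog1-4 and 339 to 395 CPM in Col-0 (−0.54, adjusted p = 0.000135).

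Sulfate assimilation, which supplies reduced sulfur for cysteine and glutathione, was lower at several consecutive steps. Of 16 tested genes 7 were lower and none was higher (median −0.34), and the sum was 676 ± 56.2 CPM in dog1-4 and 1269.8 ± 62.5 CPM in Col-0. The transporter gene SULTR1;2 averaged 8.6 ± 0.575 CPM in dog1-4 and 21.1 ± 4.92 CPM in Col-0 (−1.28), and APS1, ATP sulfurylase, 108 ± 9.22 CPM in dog1-4 and 203 ± 10.1 CPM in Col-0 (−0.92). APR2, APS reductase, was at 63.3, 78.7, 62.7 and 55.0 CPM in dog1-4, against 281, 378, 318 and 325 CPM in Col-0 (−2.34 ± 0.14, adjusted p = 2.12e-16). SIR, sulfite reductase, was at 99.3, 95.5, 116 and 114 CPM in dog1-4, against 298, 299, 306 and 264 CPM in Col-0 (−1.45 ± 0.11). Uptake, activation and both reduction steps each had a gene that was lower without overlap. APR1 (−1.56), APR3 (−0.97) and APK3 (−1.17) completed the list.

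Among glutathione and antioxidant genes more were higher than lower. Of 32 tested glutathione genes 10 were higher and 1, GSTU9, was lower (−0.62; adjusted p = 0.0957 at equal depth), although the list's median was −0.06. GSTF2, a glutathione transferase gene, was at 666, 659.6, 645 and 689 CPM in dog1-4, against 348, 297, 351 and 356 CPM in Col-0 (0.97 ± 0.09). GSTU19 averaged 471 ± 40.8 CPM in dog1-4 and 279 ± 45.6 CPM in Col-0 (0.76), and DHAR1, which recycles ascorbate, 224 ± 23.3 CPM in dog1-4 and 123 ± 2.81 CPM in Col-0 (0.87). The scarcer transferase genes GSTU24 (2.23), GSTU13 (1.40) and GSTF8 (1.28) rose more on the log2 scale. Of 22 antioxidant enzyme genes 6 were higher and 3 lower (median 0.32). PER1, a seed peroxiredoxin, averaged 11601 ± 708 CPM in dog1-4 and 8010.1 ± 764 CPM in Col-0 (0.53), CSD2, a superoxide dismutase, 85.9 ± 9.64 CPM in dog1-4 and 45.1 ± 2.86 CPM in Col-0 (0.94), and CAT1, a catalase, 85.9 ± 18.8 CPM in dog1-4 and 168 ± 16.8 CPM in Col-0 (−0.95). GPX1 (−0.05) and GPX6 (−0.07) had adjusted p-values of 0.845 and 0.699.

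Sugar genes of the raffinose family, soluble oligosaccharides that accumulate as seeds dry, were mixed, with 3 of 7 tested lower and 1 higher. GolS2, galactinol synthase, was at 1036, 1117, 1386 and 1085 CPM in dog1-4, against 1996, 1869, 2070.0 and 1789 CPM in Col-0 (−0.74 ± 0.10). STS, stachyose synthase, averaged 22.6 ± 5.85 CPM in dog1-4 and 8.01 ± 1.5 CPM in Col-0 (1.52). The committing enzyme fell while a scarce late enzyme rose, both without overlap. Oil mobilization genes, used when seedlings turn stored oil into sugar, were higher in 8 of 18 cases and lower in none, with a median of 0.17 and a range of −0.25 to 0.61. The upper end was MFP2, a β-oxidation gene, with 379 ± 15.1 CPM in dog1-4 and 248 ± 16.1 CPM in Col-0 (0.61). ICL, isocitrate lyase, averaged 3345 ± 181 CPM in dog1-4 and 2432 ± 193 CPM in Col-0 (0.46), and PCK1 659 ± 38.3 CPM in dog1-4 and 493 ± 25.8 CPM in Col-0 (0.42). ADH1, alcohol dehydrogenase, was lower, at 464 to 620 CPM in dog1-4 and 969.6 to 1317 CPM in Col-0 (−1.19 ± 0.11), and of the 10 other hypoxia-response genes tested 1 was higher.

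Ribosomal protein genes were higher in large number. Of 237 tested, 111 were higher and 1 lower (median 0.46), and their sum was 12144 ± 479.9 CPM in dog1-4 and 9070.3 ± 309 CPM in Col-0. Genes of both subunits took part: 43 of 84 small-subunit genes and 68 of 153 large-subunit genes were higher. RPS15 was at 102, 99.4, 84.7 and 107 CPM in dog1-4, against 39.4, 35.8, 37.0 and 45.7 CPM in Col-0 (1.31 ± 0.14, adjusted p = 3.41e-11), and PGY1, a large-subunit gene, averaged 134 ± 17.2 CPM in dog1-4 and 62.9 ± 9.01 CPM in Col-0 (1.06). AT5G15200, a small-subunit gene, had 135 ± 0.967 CPM in dog1-4 and 69.6 ± 3.3 CPM in Col-0 (0.95). Most changes were below a doubling, and 24 of the 111 passed a log2 fold change of 1. Many of these genes have near-identical copies, for which the division of reads is uncertain. Of other genes of the translation machinery, 7 of 54 translation factor genes were higher and 4 lower (median −0.03). Of 12 ribosome biogenesis genes none was higher and 1, NUC-L2, was lower (−0.94, adjusted p = 0.0494), though not with DESeq2 (adjusted p = 0.163). NAP57 (0.64, adjusted p = 0.102) passed the test as higher when no filter was used (adjusted p = 0.00551). The upstream motif TGGGCC (site II), counted on both strands, was found in 49.8% of ribosomal windows and 20.4% of those of tested genes, and the telobox AAACCCTA in 13.5% and 4.02%.

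**Figure D4:**
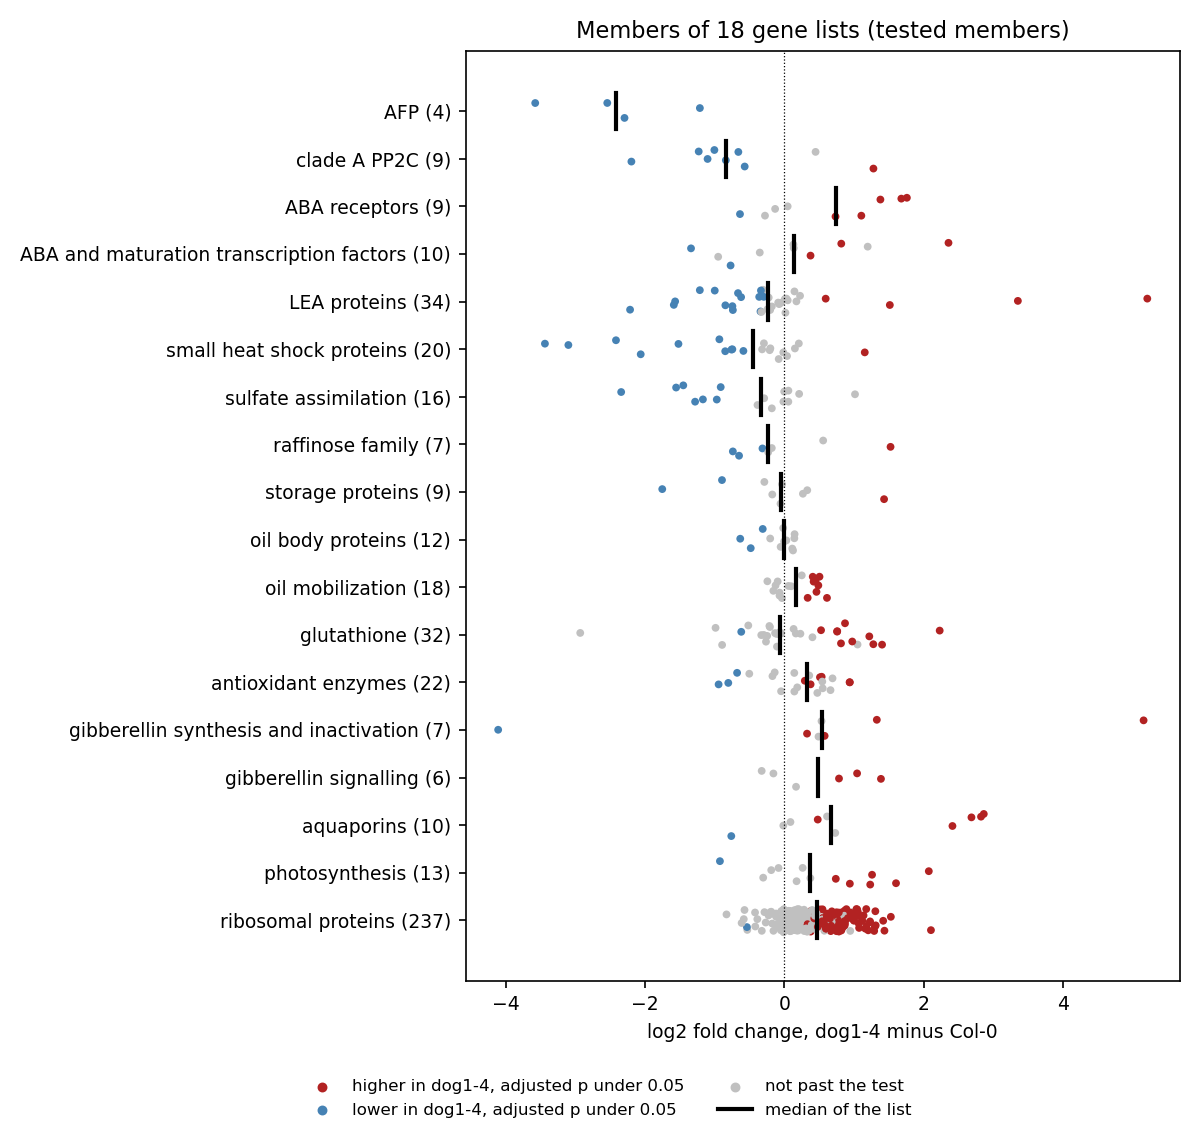
Log2 fold change (dog1-4 minus Col-0) of each tested member of the gene lists, with the number tested in brackets; red and blue points passed an adjusted p of 0.05 and black bars are medians. AFP members all lie left of 0 and the ribosomal proteins mostly right of it, with a median of 0.46, while LEA and glutathione members spread to both sides.

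Several aquaporin genes of the plasma membrane, scarce in Col-0 seeds, were higher in dog1-4. PIP1;4 was at 60.2, 58.1, 62.7 and 55.0 CPM in dog1-4, against 10.1, 8.95, 4.02 and 12.2 CPM in Col-0 (2.68 ± 0.19, adjusted p = 2.62e-17). PIP2;5 had 16.8, 31.0, 19.5 and 14.5 CPM in dog1-4 and 2.52, 4.07, 1.61 and 2.57 CPM in Col-0 (2.82), and PIP2A 9.31, 19.4, 11.4 and 10.7 CPM in dog1-4 and 1.51, 4.07, 3.22 and 0.643 CPM in Col-0 (2.41). Every dog1-4 library exceeded every Col-0 library for all 3. TIP3;1, the abundant seed tonoplast channel, averaged 5176 ± 544 CPM in dog1-4 and 5234 ± 236 CPM in Col-0 (−0.02 ± 0.10, adjusted p = 0.944). In the whole list 5 of 10 tested were higher and 1 lower.

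Photosynthesis transcripts were scarce in dry seeds and partly higher in dog1-4, with 6 of 13 tested higher and 1 lower (median 0.37). RBCS1A, the Rubisco small subunit, was at 40.4, 27.1, 28.5 and 46.6 CPM in dog1-4, against 7.07, 4.88, 12.1 and 10.9 CPM in Col-0 (2.07 ± 0.27), and RCA, Rubisco activase, averaged 9.98 ± 2.51 CPM in dog1-4 and 2.12 ± 0.419 CPM in Col-0 (2.19). Markers of green tissue, of which these are 2 of 8, summed to 91.6 to 104 CPM in dog1-4 and 27.7 to 38.4 CPM in Col-0. CAB2, CAB3 and LHCB2.1, light-harvesting genes that dominate green tissue, were at 0 in all 8 libraries. How reads that fit several genes were counted is not given, so for genes with similar copies 0 reads need not mean absence.

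The largest changes of well-counted genes lay mostly outside these groups. AT3G08030, which encodes a cell wall protein of the DUF642 family, was at 166, 201, 182 and 123 CPM in dog1-4, against 11.6, 18.7, 13.7 and 17.4 CPM in Col-0 (3.46 ± 0.17, adjusted p = 1.09e-21). RAP2.4, an ERF transcription factor gene, was at 57.7, 42.6, 48.9 and 60.3 CPM in dog1-4, against 6.56, 8.14, 8.04 and 7.07 CPM in Col-0 (2.85 ± 0.21). Of the other increased genes chosen by the same rule, some encode regulators of transcription. LCR69, a cysteine-rich protein gene (2.38), and CYS2, a phytocystatin gene (2.16), do not. AN3, a growth-promoting coactivator of leaves, averaged 88.4 ± 15.3 CPM in dog1-4 and 17.7 ± 2.62 CPM in Col-0 (2.34), the bHLH gene AT1G68240 80.1 ± 15.3 CPM in dog1-4 and 14.7 ± 4.42 CPM in Col-0 (2.39), AT5G10120 of the EIN3 family 79.6 ± 6.81 CPM in dog1-4 and 15.4 ± 3.82 CPM in Col-0 (2.33), and STO, a B-box gene of light signalling, 34.3 ± 4.13 CPM in dog1-4 and 7.56 ± 1.4 CPM in Col-0 (2.15). On the decreased side AT3G12955, a SAUR-like gene, was at 30.4, 12.9, 17.1 and 22.9 CPM in dog1-4, against 188, 155, 183 and 163 CPM in Col-0 (−2.96 ± 0.16). DIP2 averaged 19.6 ± 5.75 CPM in dog1-4 and 110.3 ± 17.4 CPM in Col-0 (−2.51), AT4G22755, a sterol methyl oxidase gene, 5.49 ± 1.18 CPM in dog1-4 and 34.8 ± 4.92 CPM in Col-0 (−2.59), and AGL94, a MADS-box gene, 6.9 ± 2.6 CPM in dog1-4 and 34.4 ± 10.2 CPM in Col-0 (−2.34). Among the abundant increased genes were AT1G62510, a lipid transfer-like gene (3211 ± 569.8 CPM in dog1-4 and 1183 ± 51.5 CPM in Col-0), AT2G33830, of a dormancy and auxin associated family (402 ± 18.2 CPM in dog1-4 and 188 ± 25 CPM in Col-0), and CYN, cyanase (324 ± 36.2 CPM in dog1-4 and 149 ± 19.7 CPM in Col-0).

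Whether the same genes answered to loss of DOG1 in seeds with an altered BRM, a SWI/SNF chromatin remodeling ATPase, was examined by setting brm-3dog1-4 against brm-3, a contrast that shares no library with the first. DOG1 was at 0.83, 3.21, 4.38 and 4.19 CPM in brm-3dog1-4, against 98.3, 125, 92.6 and 101 CPM in brm-3. There 705 genes were increased (6.88%) and 499 decreased (4.87%) at the same thresholds. In both backgrounds 250 genes were increased and 137 decreased. These 387 genes are 60.5% of those changed in dog1-4 against Col-0 and 32.1% of those changed in brm-3dog1-4 against brm-3, and 4 genes changed in opposite directions. Of the 431 genes increased in dog1-4, 394 (91.4%) also had a positive change in the brm-3 background, as had 50.8% of all tested genes, and of the 209 decreased genes 198 (94.7%) had a negative one, as had 49.2% of all tested genes.

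The size of the change differed between backgrounds for 901 genes in a test of the interaction (8.79%; adjusted p under 0.05; 1.95% positive and 6.84% negative), among them 108 of the 640. Of these 108, 62 were increased in dog1-4, and for 58 of the 62 the change was more negative in the brm-3 background. The other 46 were decreased in dog1-4, and of these 25 had a more negative and 21 a more positive change in the brm-3 background. The 640 genes were picked by the change that the interaction subtracts. That choice favours negative interactions among increased genes and positive ones among decreased genes, so these splits are partly set in advance. The log2 fold change of AT1G54410 was 2.65 there and that of PIP1;4 was 1.58 (interaction −2.56, adjusted p = 5.12e-05, and −1.11, adjusted p = 0.0021). Both started higher in brm-3 than in Col-0: AT1G54410 averaged 12.8 and 1.11 CPM, and PIP1;4 27.2 and 8.82 CPM. In brm-3dog1-4 they averaged 80.6 and 80.0 CPM, against 44.8 and 59.0 CPM in dog1-4. In the brm-3 background the log2 fold change of PP2CA was −0.09 (interaction 0.75, adjusted p = 0.0011), that of HSP17.6II −0.14 (interaction 3.30, adjusted p = 0.00091) and that of ATHSP22.0 −0.27 (interaction 2.83, adjusted p = 0.024), so that these decreases were smaller in the brm-3 background. AT4G36600 went the other way, with −3.18 there (interaction −1.61, adjusted p = 1.05e-06). Of 34 LEA genes 28 were lower in the brm-3 background with a median of −0.79, where 19.7% of all tested genes were lower and 18.5% higher, and 17 of the 34 gave a significant interaction. The AFP family had 3 of 4 lower, clade A PP2C genes 4 of 9 lower and 2 higher, sulfate assimilation 10 of 16 lower and none higher, and ribosomal genes 171 of 237 higher and 10 lower with a median of 0.74. Other groups were more evenly split there. Of 32 glutathione genes 11 were higher and 10 lower, and of 9 ABA receptor genes 3 and 2. Of 7 genes of GA synthesis and inactivation 1 was higher and 1 lower. Of 18 oil mobilization genes 7 were higher and 3 lower (median −0.05). Ribosome biogenesis genes were higher in 6 of 12 cases and lower in none. For AHG1 (−0.02, adjusted p = 0.95) and GA20OX3 (−1.40, adjusted p = 0.29) the interaction did not pass the test.

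**Figure D5:**
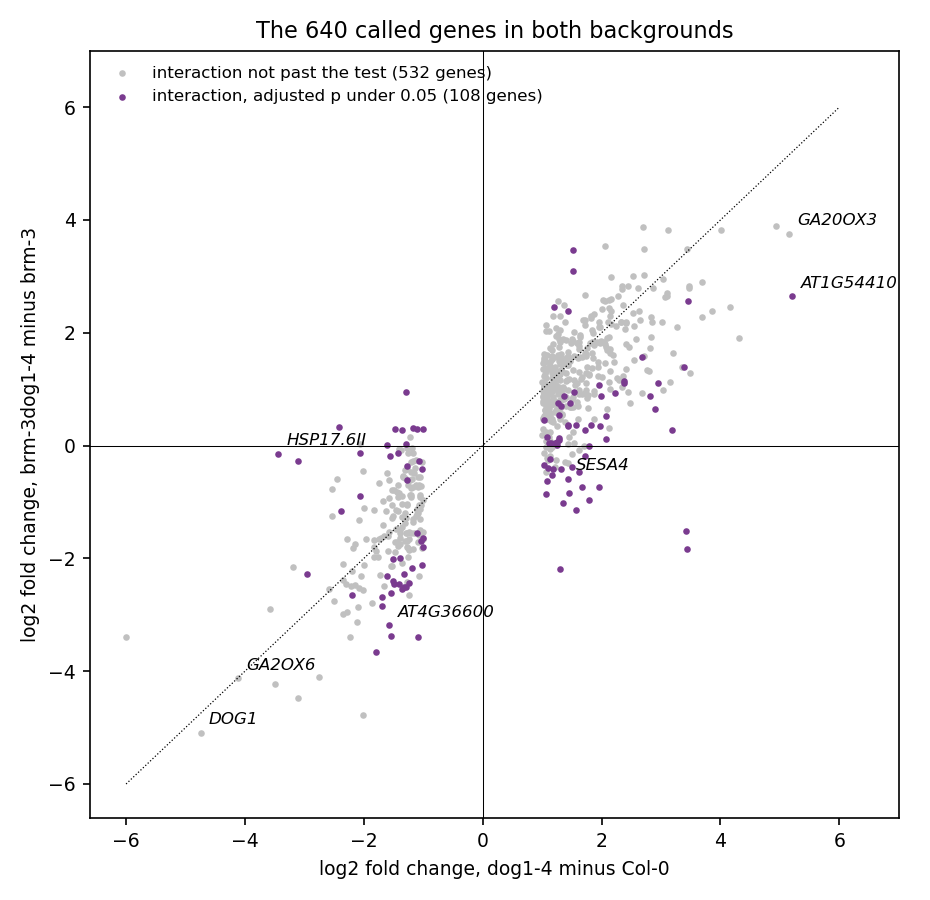
Log2 fold change on loss of DOG1 in the brm-3 background (brm-3dog1-4 minus brm-3) against that in the wild-type background (dog1-4 minus Col-0) for the 640 changed genes, with the interaction result marked by colour and a line of equal change. Of the increased genes 394 and of the decreased genes 198 keep their sign.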

How the data were processed

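RNA of dry seeds was measured in 16 libraries by 3′RNA-Seq. The authors deposited a table of raw counts per gene for each library; the submitters' processing notes list STAR 2.7.8a, TAIR10 and DESeq2 without saying what each did, and strand, molecular identifiers, the counting tool and the treatment of reads that fit several genes are not given in the sources used here. Samples were grouped by genotype label, 4 libraries each. Counts were fitted for all 16 libraries by genotype with edgeR 4.0.16 (R 4.3.3, limma 3.58.1; TMM factors, filterByExpr, robust quasi-likelihood F test, Benjamini-Hochberg over 10251 tested genes), and the contrasts dog1-4 minus Col-0, brm-3dog1-4 minus brm-3 and their difference were taken. Genes counted as changed had an adjusted p below 0.05 and a log2 fold change beyond 1. CPM used TMM-scaled totals, and 3 counts per library, averaged over libraries, served as floor where a fold is given as "at least". The procedure was tested on simulated data. These had the same spread for every gene and changes only in genes with a mean of at least 20 counts, so changes of scarce genes were not covered.

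Named genes were DOG1, the 10 largest increases and 10 largest decreases without overlap at a mean of at least 20 counts, the 5 most abundant changed genes in each direction, the 3 genes of smallest adjusted p in each list and genes named in the study's text; other list members and marker genes were chosen after their values were seen. The members and lists were chosen with earlier results of these data known. Upstream windows of 250 bases came from the RefSeq annotation of TAIR10.1, and 10181 tested genes had one. Alternatives were other scaling factors, other filters, the 8 libraries alone, a replicate block, a threshold test on the fold change (glmTreat), thinning to equal depth, DESeq2 and leaving out each library.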

Additional observations from a re-analysis of the deposited data

Results flagged for a closer look

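In 14 of 226 groups of 4 libraries (6.19%), 1 library stood apart from the other 3 by more than Dixon's 95% critical ratio of gap to range allows, which chance gives in about 1 in 20 groups. In CPM, a single high dog1-4 library stood apart for AT1G62510 (4060.4, the others 2846 to 2994), XTH25 (4088, the others 2796 to 3001), ABF2 (14.7, the others 9.93 to 10.7), SLY1 (23.2, the others 12.2 to 13.7), GA2OX6 (1.63, the others 0), DHAR1 (259, the others 209 to 215), ADH1 (619.9, the others 464 to 485) and AT3G53040 (1189, the others 895 to 921). In CPM, a single low dog1-4 library stood apart for PYL13 (9.04, the others 16.8 to 18). In CPM, a single high Col-0 library stood apart for TT7 (9.65, the others 5.55 to 5.79) and Hsp70b (2733, the others 2360.3 to 2381). In CPM, a single low Col-0 library stood apart for GSTF2 (297, the others 348 to 356), MLS (2049, the others 2304 to 2346) and AT5G60390 (203, the others 269 to 279).

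For 30 of 113 named genes the change on loss of DOG1 differed between the brm-3 and the wild-type background in the interaction test of edgeR. Among all tested genes the share was 8.79%. Many named genes were chosen by their change in dog1-4, which also enters the interaction, so these shares are not comparable. The interaction is the log2 fold change in brm-3 minus that in the wild-type background. Genes with a positive change in dog1-4 had a less positive or a negative one in brm-3: AT1G54410 (−2.56), AT3G08030 (−0.90), PIP1;4 (−1.11), LCR69 (−1.27), SESA4 (−2.02), AT1G62510 (−1.09), AT5G15780 (−0.58), XTH11 (−1.29), GSTF2 (−0.39), DHAR1 (−0.76), MLS (−0.51) and PSBW (−1.20). All of these but AT5G15780 and MLS also had a higher mean in brm-3 than in Col-0, such as LCR69 (61.6 CPM in brm-3 and 18.2 CPM in Col-0). The decrease was smaller in brm-3 for ATHSP22.0 (2.83), AT3G12955 (0.69), HSP23.6-MITO (1.23), PP2CA (0.75) and AT2G29500 (1.17). Each of the latter had a lower mean in brm-3 than in Col-0, such as HSP23.6-MITO (35.6 CPM in brm-3 and 91.5 CPM in Col-0). A more negative change in brm-3 was found for GEA6 (−0.64), XTH25 (−0.99), AT4G36600 (−1.61), PYL12 (−1.13), CAT1 (−0.86), ADH1 (−0.99), AT5G56100 (−0.43), OLEO4 (−1.10), AT3G18570 (−0.43), HSP17.4 (−0.48), GPX1 (−0.59), GPX6 (−1.0014) and NCED4 (−0.89). Of the last group, GPX1 and GPX6 had not passed the test in dog1-4. Adjusted p-values of all 30 were at most 0.045.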

How the results depend on the processing

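Replicate numbers did not pair the libraries: the deviations of same-numbered dog1-4 and Col-0 libraries correlated at 0.011 to 0.032, and a fit with the replicate block gave 437 increased and 214 decreased genes and 399 in both backgrounds, against 431, 209 and 387 without it. Other scaling factors, no filter and DESeq2 kept the 3 counts within 1.5 times. A filter of at least 10 counts in every library, which tests fewer genes, gave 117 increased, 80 decreased and 128 in both backgrounds; the 8 libraries alone gave 286 increased. Dropping the limit on the fold change gave 1009, 880 and 1328, testing against a log2 fold change of 1 with glmTreat gave 84, 63 and 96, and thinning to equal depth gave 249, 136 and 236. Leaving out 1 library gave 398 (Col-0 replicate 1 left out) to 476 (Col-0 replicate 4) increased genes, 211 (Col-0 replicate 1) to 245 (dog1-4 replicate 4) decreased genes and 362 (dog1-4 replicate 1) to 427 (dog1-4 replicate 3) in both backgrounds. Among named genes 1755 combinations of gene and setting stayed on their side of the threshold, 110 lost it, 5 gained it and 6 changed sign. Those 6 concern genes that never passed the test: at equal depth GPX1 was at 0.021 and BRM at −0.10, while leaving out 1 library gave −0.030 to 0.12 for SNRK2.2 (below 0 in the absence of Col-0 replicate 1 or 4 or dog1-4 replicate 1) and −0.066 to 0.25 for BRM (below 0 in the absence of dog1-4 replicate 4). The cause was not tested. SESA1 (adjusted p = 0.0256) missed the threshold without Col-0 replicate 1, 2 or 3 or dog1-4 replicate 1 or 4, and under the replicate block (0.0557), which in turn put NAP57 (adjusted p = 0.102) past it (0.00361) and changed no other call of a named gene. Depth limits the scarce genes, since 3 reads are 1.51 to 3.87 CPM.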

Other observations

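Around DOG1, the adjacent gene models CIPK20 and AT5G45840 had at most 3 reads in any library, and AT5G45775, a ribosomal protein gene 6 models away, was higher in dog1-4 (1.07, adjusted p = 0.00293). Increased genes made up 3.54% to 4.99% and decreased genes 1.68% to 2.47% of the tested genes of each chromosome. MRD1 was at 0 in all Col-0 libraries and was at least 6.52-fold higher in dog1-4, and AT5G51440, a mitochondrial small heat shock protein gene, was at least 4.18-fold lower; both were chosen after their values were seen.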
